A study of Homo sapiens with 5 samples.

Results

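The 9 genes described here encode proteins that pathologists use to recognise neuroendocrine cells: the granins CHGA, CHGB, SCG2 and SCG3, the vesicle protein gene SYP, the adhesion molecule gene NCAM1, the transcription factor gene INSM1 and the cytosolic enzyme genes ENO2 and UCHL1. They were chosen by symbol, without a measured value in the rule, and all 9 matched a gene identifier among the 60651 genes listed. They were measured by poly(A) RNA sequencing in COLO 320DM, a human colorectal adenocarcinoma line whose family of lines has been described as having neuroendocrine features. Each of the 5 libraries was labelled with a different small interfering RNA (siRNA). The USP17 siRNA group held 3 libraries (siIDT, sino4 and siSMPLT), taken as USP17-targeting because the series names the other libraries, siNT and siL2, as its non-silencing controls. No dose, time after transfection, clone or culture number is given in the sources used here. Each duplex had 1 library and nothing states separate cultures. The p-values below therefore rest on variation between libraries, which may hold none between cultures. Technical variation and differences between the siRNAs of a group cannot be told apart in it.

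A neuroendocrine cell stores peptides and amines in dense-core granules. Granins aggregate in the trans-Golgi and help to form these granules, prohormone convertases and carboxypeptidase E cut the stored peptides, and SNARE proteins release them. INSM1 is a transcription factor that helps to switch this programme on, while the repressor REST, which binds a DNA element called RE1, holds neuronal and neuroendocrine genes silent in other cells. In the gut the programme marks the scattered enteroendocrine cells of the crypt and villus.

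The libraries held 31704821 to 36276143 reads on the genes' own strand. The 30 annotated genes of the USP17L family, which encodes USP17, had 0 reads in each of the 5 libraries, so whether the siRNAs lowered their target could not be read from these counts. Of the epithelial markers, CDX2, an intestinal transcription factor, stood at 1799 TPM (a share of all transcripts, corrected for length) on average in the controls and the keratin gene KRT8 at 108 TPM. EPCAM reached 2.39 TPM and KRT20 2.29 TPM, and CDH1, which encodes E-cadherin, 0.050 TPM. The leukocyte gene PTPRC stood at 17.7 TPM and the fibroblast collagen gene COL1A1 at 6.75 TPM. Other markers of those cells were near 0. Of 7 leukocyte markers 3 were under 1 TPM (CD3E, CD14 and ITGAM), and of 8 stromal markers 5 were, COL1A2 and DCN among them.

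The set did not carry a neuroendocrine profile in this line. In the controls 6 of the 9 genes had a mean under 1 TPM, and INSM1 had no read in any library. Among all 19885 protein-coding genes, 11525 had a control mean of at least 1 TPM, so a level under 1 TPM is common. UCHL1 was the exception, at 963 TPM, and made up 99.2% to 99.5% of the summed TPM of all 9 genes in each library. With UCHL1 left out, the other 8 genes summed to 4.25 to 8.48 TPM. The name neuroendocrine identity genes therefore goes against the levels, and the genes are called neuroendocrine markers below for their use elsewhere.

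Promoter sequence was at hand for 5 of the 9 genes (CHGA, SCG3, SYP, ENO2 and UCHL1) from RefSeq on GRCh38.p14. The 250 bases before the RefSeq gene start are shown for UCHL1, the abundant member, and for CHGA, which had 4 reads in all, to set a transcribed marker beside a nearly silent one. GENCODE 29, used for the gene coordinates below, starts UCHL1 at 41256413 and CHGA at 92923080. By that annotation the UCHL1 window lies wholly, and the CHGA window partly, inside the gene. Capitals mark matches, on either strand, to the motifs searched, and both sequences run 5′ to 3′ on the gene's plus strand.
UCHL1 (chr4:41256678-41256927): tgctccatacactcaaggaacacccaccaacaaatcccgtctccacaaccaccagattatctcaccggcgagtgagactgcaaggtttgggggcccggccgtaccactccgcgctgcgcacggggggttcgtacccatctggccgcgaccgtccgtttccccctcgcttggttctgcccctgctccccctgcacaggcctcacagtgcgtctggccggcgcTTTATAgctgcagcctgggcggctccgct
CHGA (chr14:92922900-92923149): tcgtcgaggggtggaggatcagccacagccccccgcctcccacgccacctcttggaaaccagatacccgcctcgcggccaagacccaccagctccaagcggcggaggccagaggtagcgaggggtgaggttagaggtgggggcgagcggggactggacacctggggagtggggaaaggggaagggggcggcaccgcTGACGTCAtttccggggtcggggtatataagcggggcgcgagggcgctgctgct

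The CHGA window holds the cyclic AMP response element TGACGTCA, which 1.65% of 35114 RefSeq windows of the same length hold. The UCHL1 window holds the TATA box letters TATAAA on the opposite strand, found in 10.7% of windows. Only these exact letters were searched, and the similar run tatataag in the CHGA window was not counted. Both windows hold more CG dinucleotides than the median of 11, with 20 in UCHL1 (67.6% of windows have fewer) and 21 in CHGA (69.8%). Their control levels were 963 and 0.030 TPM. SCG3, listed at 0.06 to 0.19 TPM, has 16, and its window holds CAGCTG, an E-box of the kind bound by basic helix-loop-helix factors, 2 times (14.0% of windows hold it). SYP and ENO2 have 31 and 30 and hold none of these motifs. The RE1 was searched as its parts TTCAGCACC (0.288% of windows) and GGACAGC (4.76%), and neither occurs in the 5 windows. No match says only that these letters are not in this window.

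UCHL1 encodes a ubiquitin C-terminal hydrolase of neurons and neuroendocrine cells and lies on chromosome 4 from 41256413 to 41268455 (GRCh38, GENCODE 29). Its TPM was 924 in siL2, 1001 in siNT, 807 in siIDT, 881 in sino4 and 901 in siSMPLT. In the controls it ranked 132 among 19885 protein-coding genes. Of the other hydrolases of its family, UCHL5, a proteasome-associated enzyme, had a control mean of 96.7 TPM, so that UCHL1 was 9.96 times as high. UCHL3, its closest relative, was listed at 206 TPM. RSEM gave UCHL3 17270 expected reads in all against 2736 uniquely assigned ones, so its level depends on how shared reads were divided.

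ENO2, the gamma enolase of neurons, was next in order, on chromosome 12 from 6913745 to 6923698. Its levels were 2.94 TPM in siL2, 5.43 in siNT, 4.07 in siIDT, 3.21 in sino4 and 3.42 in siSMPLT. ENO1, the enolase found in nearly all cells, stood at 1717 TPM in the controls, 410 times the level of ENO2. ENO2 thus gave 0.192% to 0.280% of the summed TPM of the 3 enolase genes in each library.

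SYP, which encodes the vesicle membrane protein synaptophysin, lies on chromosome X from 49187804 to 49200259. It stood at 0.54 TPM in siL2, 1.52 in siNT, 0.96 in siIDT, 0.77 in sino4 and 0.73 in siSMPLT. CHGB, chromogranin B, on chromosome 20 from 5911430 to 5925361, measured 0.43 TPM in siL2, 0.95 in siNT, 0.74 in siIDT, 0.72 in sino4 and 0.61 in siSMPLT. The ranges of SYP and CHGB over the controls overlapped, so their order is not set. SYPL1, a synaptophysin paralog that most cells express, stood at 89.5 TPM in the controls.

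NCAM1, the CD56 adhesion molecule, lies on chromosome 11 from 112961247 to 113278436. Its TPM was 0.19 in siL2, 0.24 in siNT, 0.25 in siIDT, 0.13 in sino4 and 0.32 in siSMPLT. Its unique reads numbered 11 in siL2, 14 in siNT, 9 in siIDT, 6 in sino4 and 9 in siSMPLT, or 49 in all. Its paralog NCAM2 had 61 reads in all. The secretogranin genes were lower still. SCG3, a granule membrane adaptor on chromosome 15 from 51681353 to 51721031, had 5 to 8 reads per library. SCG2, the precursor of secretoneurin on chromosome 2 from 223596940 to 223602503, had 1 to 4. CHGA, chromogranin A, the most used of these markers in blood and tissue, lies on chromosome 14 from 92923080 to 92935293 and had 0 reads in siL2 and siIDT, 1 in siNT, 1 in sino4 and 2 in siSMPLT.

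INSM1, the zinc finger repressor on chromosome 20 from 20368121 to 20370949, had 0 reads on either strand in each library. With no read counted, up to 3 reads remain possible, which is 0.0849 to 0.0938 CPM (reads scaled to library size; counting error only). Its paralog INSM2 also had 0 reads. By mean control TPM the 9 genes thus ran UCHL1, ENO2, SYP, CHGB, NCAM1, SCG3, SCG2, CHGA and INSM1. Besides SYP and CHGB, the control ranges overlapped for NCAM1 and SCG3, for SCG2 and CHGA, and for CHGA and INSM1, which shared a value of 0 in siL2. The same order was found over the USP17 siRNA libraries.

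**Figure D1:**
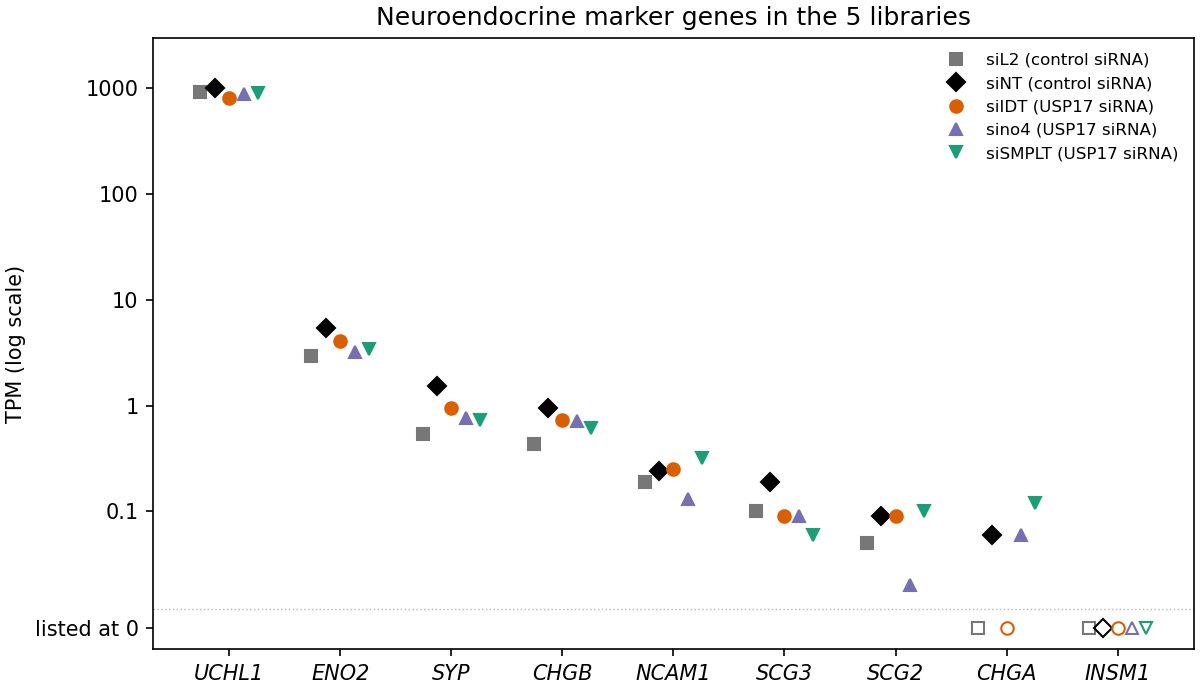
TPM of each of the 9 marker genes (log axis) in the 5 libraries, 1 point per library, with open symbols for genes listed at 0. UCHL1 lies between 807 and 1001 TPM in every library, while no other gene passes 5.43 TPM.

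The wider programme was read from 7 further lists of 105 genes, of which 39 had a control mean of at least 1 TPM and 23 had no read in any library. For all protein-coding genes, 11525 of 19885 had a control mean of at least 1 TPM. Lineage transcription factors were mostly below that level. Of 19, 16 were under 1 TPM, among them NEUROG3 and FEV with 0 reads throughout and NEUROD1, an enteroendocrine factor, with 7 reads in all. SOX4, a factor of many progenitor cells, led the list at 72.2 TPM, followed by MYT1, a neural zinc finger factor, at 2.91 and ISL1, a LIM homeodomain factor of neurons and endocrine cells, at 2.48 TPM. Of 17 hormone and amine genes, 16 were under 1 TPM and 8 had no read, including GCG, CCK, SST, GAST and DDC, the enzyme that makes serotonin and dopamine from their precursors. The neuropeptide galanin gene GAL was the exception at 72.3 TPM. NTS, neurotensin, stood at 0.275 TPM and GRP at 0.065 TPM.

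Parts of the secretory and neuronal machinery were nevertheless transcribed. In the granule list 4 of 15 genes were above 10 TPM: PAM, which amidates peptides (107 TPM), PCSK1N, an inhibitor of prohormone convertase (17.3), CPE, carboxypeptidase E (15.5), and CADPS2, a granule priming factor (11.7). The convertases themselves, PCSK1 and PCSK2, stood at 0.010 and 0.045 TPM. In the exocytosis list 8 of 20 passed 10 TPM, among them SYPL1 and SV2A, a vesicle glycoprotein (57.3 TPM). The neuronal SNARE gene SNAP25 stood at 41.99 TPM. Of the 19 genes on the neuronal list, which also holds the epithelial antigen gene CEACAM5, 4 passed 10 TPM, among them STMN1, a tubulin-binding protein of dividing cells as well (832 TPM), NEFL, the light neurofilament chain (24.1), and KIF5C, a neuronal kinesin (16.5).

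The repressor side was well expressed. REST stood at 33.1 TPM in the controls, and each of the 10 genes of its complex and of the INSM1 corepressors was above 1 TPM. HDAC2, KDM1A and HDAC1, a histone demethylase and deacetylases, led at 262, 208 and 124 TPM. Since the libraries are bulk RNA, fewer cells expressing a gene and less RNA per cell cannot be told apart for any of these levels.

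**Figure D2:**
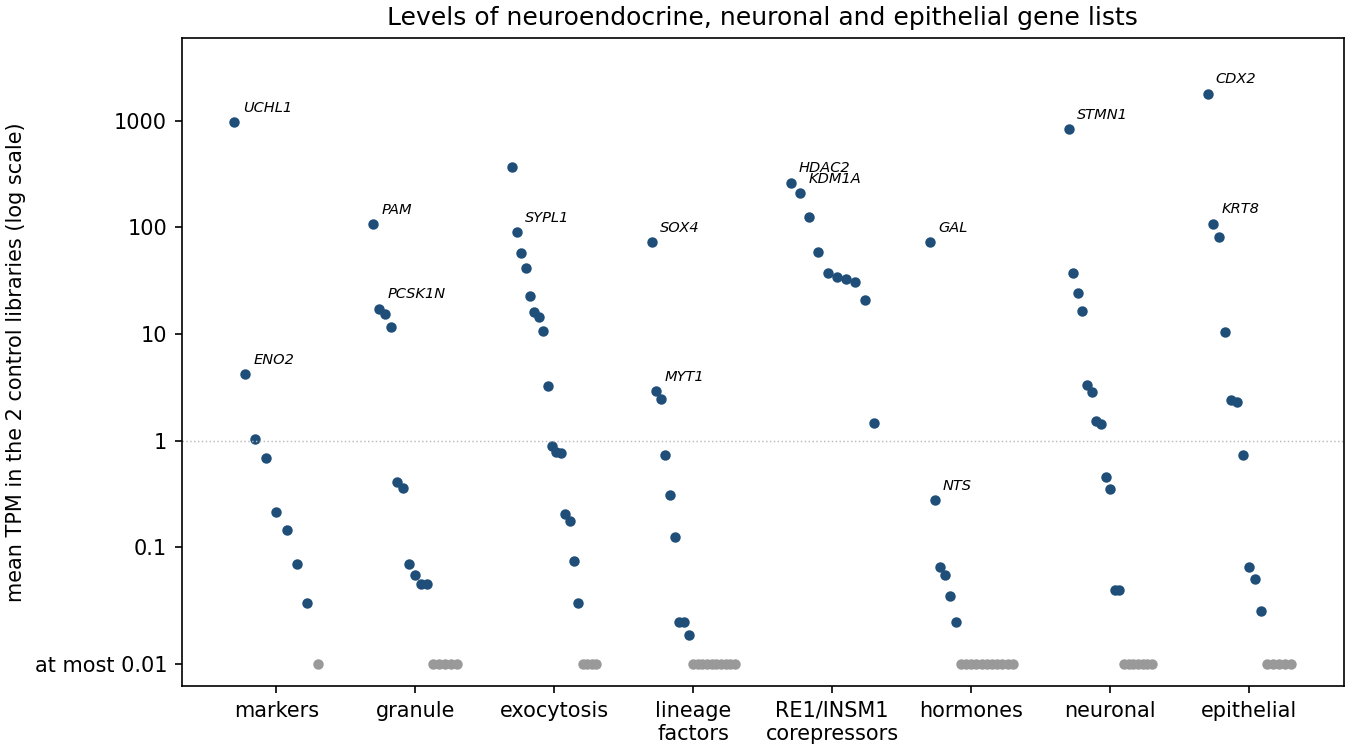
Mean TPM over the 2 control libraries (log axis) for each gene of the marker set and of 7 other lists (epithelial markers in place of paralogs), sorted within each list, with grey points at or below 0.01 TPM and leading genes named. Hormone and lineage factor genes crowd at the bottom, whereas all 10 RE1 and INSM1 corepressor genes lie above 1 TPM.

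USP17 siRNA and control siRNA were then compared. Of the 9 markers, 5 had enough reads to be tested (UCHL1, ENO2, SYP, CHGB and NCAM1), and edgeR's quasi-likelihood test with Benjamini-Hochberg adjustment called 0 of them at 0.05, where it called 10.5% of all 16341 genes tested. At an unadjusted p of 0.05, 1 of the 5, UCHL1, passed, as did 28.9% of all genes, and limma-voom also called 0 of the 5. DESeq2's Wald test called 0 of the 4 to which it gave an adjusted p, with none given for NCAM1. The other 4 markers, CHGA, SCG2, SCG3 and INSM1, did not pass the filter on low counts and got no test.

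UCHL1 measured 477 CPM in siIDT, 535 in sino4 and 539 in siSMPLT, against 566 in siL2 and 607 in siNT. All 3 USP17 libraries lay below both controls, with means of 517 ± 34.6 CPM (SD, n = 3) and 586 ± 28.9 CPM (SD, n = 2). The log2 fold change was -0.18 ± 0.08 (SE), a fold of 0.882 with a 95% interval of 0.782 to 0.995, and edgeR gave an adjusted p of 0.159. NCAM1 was the other tested marker whose groups did not overlap in CPM, at 0.275, 0.186 and 0.281 CPM against 0.321 in siL2 and 0.396 in siNT. In TPM its groups overlapped and the means stood the other way, at 0.233 in the USP17 libraries and 0.215 in the controls, so its direction depended on the measure. It entered the test through the controls alone, which both reached the filter's 0.310 CPM while no USP17 library did, so a lower USP17 group was favoured by the filter itself. Its log2 fold change was -0.53 with a 95% interval of -1.41 to 0.35 (adjusted p 0.408, edgeR). Groups that did not overlap were found for 45.9% of all tested genes, and for 22.6% with the USP17 libraries lower.

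In SYP, CHGB and ENO2 the USP17 libraries lay between or close to the controls. SYP measured 1.65, 1.18 and 1.25 CPM in siIDT, sino4 and siSMPLT, against 0.963 in siL2 and 2.21 in siNT, so every USP17 library was above one control and below the other. CHGB showed the same placement, at 1.19, 1.08 and 0.969 CPM against 0.759 in siL2 and 1.56 in siNT. ENO2 stood at 5.69, 4.06 and 5.25 CPM against 4.47 in siL2 and 7.28 in siNT, with sino4 below both controls. The log2 fold changes were -0.22 for SYP (95% interval -1.01 to 0.57), -0.10 for CHGB (-0.83 to 0.63) and -0.23 for ENO2 (-0.76 to 0.29), with edgeR adjusted p values of 0.715, 0.868 and 0.549. These intervals allow changes of over 1.5-fold in either direction for CHGB.

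The sign of these 3 differences depended on the siNT library. Without siNT the log2 fold changes turned to 0.50 for SYP, 0.51 for CHGB and 0.16 for ENO2, and without siL2 they were -0.70, -0.52 and -0.54, with no call in either case. siNT was the highest of the 5 libraries for all 5 tested markers, as it was for 25.2% of all tested genes. SYP was 2.29-fold, CHGB 2.05-fold and ENO2 1.63-fold higher in siNT than in siL2, so 3 of the 5 were at least 1.5-fold higher there, against 6.44% of tested genes, while UCHL1 differed by 1.07-fold. With 1 library per control siRNA this difference has no replicate check.

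**Figure D3:**
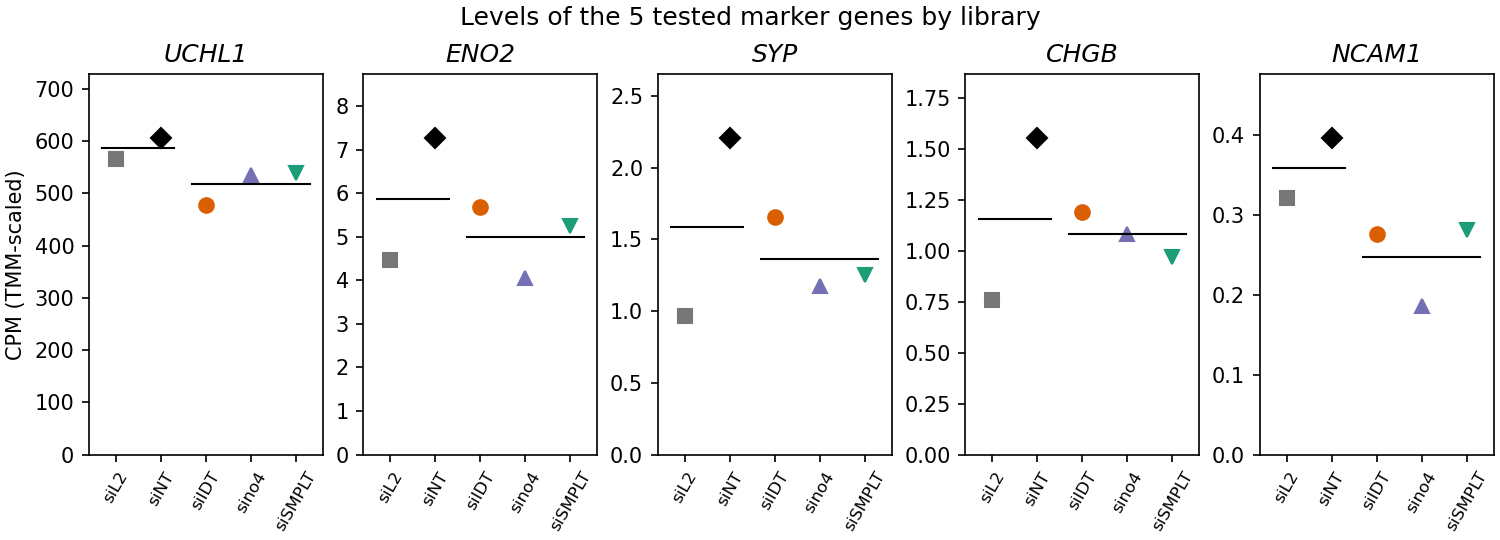
Level in CPM (linear axes from 0) of the 5 tested markers in each library, with horizontal lines at the group means. The diamond of siNT is the highest point in every panel, and UCHL1 and NCAM1 have every USP17 siRNA library below both controls in CPM.

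SYP varied most among the tested markers, over 1.15 on the log2 scale. The genes whose log2 levels across the 5 libraries lay closest to it, by Euclidean distance after centring each gene, were the pseudogene ANP32BP1 (0.111), DEPTOR (0.120), an inhibitor of mTOR, and the pseudogene HNRNPA1P54 (0.170). In all 4 genes siNT was the highest and siL2 the lowest of the 5 libraries over which the distance was taken. That shared order follows from how the genes were chosen and is no separate result.

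The markers' 3′ UTRs were searched for 7-base sequences (7-mers) picked from earlier results on these same libraries, so what follows is a description only. Genes with ATCACTC had a median log2 fold change of -0.13 (-0.0046 in other genes) and genes with TCACTCA one of -0.09 (-0.0040). Genes with GATCATC went the other way, with a median log2 fold change of 0.10 (-0.02 in other genes). Their median of siL2 minus the USP17 libraries was -0.23 on the log2 scale (0.01 in other genes). NCAM1 alone of the 9 holds ATCACTC, and its site contains TCACTCA too, read 1 base further on. NCAM1 also holds GATCATC, as INSM1 does. The other 7 markers, UCHL1 included, hold none of these 7-mers, while of 19094 annotated 3′ UTRs 6.22% hold the first of these 7-mers, 9.93% the next and 4.90% GATCATC. The NCAM1 sites are shown, with the 7-mer in capitals, because NCAM1 had the lowest fold change by read counts of the tested markers, and whether these sites played a part in it was not tested.
NCAM1 (chr11:113277037-113277063, GRCh38, plus strand, 3′ UTR): ggaaacaaaaATCACTCaaacggaatc
NCAM1 (chr11:113276203-113276229, GRCh38, plus strand, 3′ UTR): aggtaggtagGATCATCccacgcttgc

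Of the 105 genes on the 7 wider lists, 49 were tested, and 4 rose and 4 fell with USP17 siRNA. Among all tested genes 4.64% rose and 5.82% fell. The lists' median log2 fold change was -0.04, against 0.0053 for all tested genes. The calls were spread over granule, factor, corepressor and neuronal genes in both directions, and none was among the exocytosis, hormone or paralog genes.

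Among lineage factors, 2 of 6 tested rose and 1 fell (median 0.20). MYT1, a zinc finger factor that acts in neuronal and endocrine differentiation, rose from 7.41 and 8.78 CPM in siL2 and siNT to 15.7, 18.5 and 17.3 CPM in siIDT, sino4 and siSMPLT. All 3 USP17 libraries lay above both controls, the log2 fold change was 1.08 ± 0.13 (SE; adjusted p 0.00468, edgeR), and the call held without any 1 library. SOX4 rose from 248 and 273 CPM to 376, 330 and 340 CPM, 0.42 on the log2 scale (adjusted p 0.0191, edgeR; 0.0707 without siIDT and 0.0766 without sino4). PROX1, a homeobox factor of enteroendocrine and Wnt-driven cells, fell by 1.39 on the log2 scale, from 87 and 178 reads in siL2 and siNT to 32, 44 and 64 reads in siIDT, sino4 and siSMPLT (adjusted p 0.0405, edgeR). That call was lost without siIDT (adjusted p 0.130), sino4 (0.148) or siNT (0.133), and without siNT the log2 fold change was -0.81. PROX1 carries ATCACTC in its 3′ UTR, and none of the other 7 called genes of these lists carries any of the 3 7-mers. The PROX1 3′ UTR has 5668 bases, against 78 to 2660 in those 7 genes. ATCACTC was picked from earlier results on these same libraries, and 6.22% of annotated 3′ UTRs hold it. Its part in the PROX1 change was not tested. ISL1, at 3.74 and 4.50 CPM in the controls, had a log2 fold change of -0.05 (95% interval -0.40 to 0.30).

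In the granule list 1 of 5 tested genes fell and none rose (median -0.28). CPE fell from 20.6 and 22.3 CPM to 14.4, 15.3 and 17.1 CPM, a log2 fold change of -0.46 (adjusted p 0.0334, edgeR; 0.120 without siIDT, 0.157 without sino4 and 0.0568 without siNT). PCSK1N and PAM did not pass, with log2 fold changes of -0.49 and -0.28 and edgeR adjusted p values of 0.0508 and 0.129, although every USP17 library lay below both controls. CADPS2, the other well expressed granule gene, had a log2 fold change of -0.13.

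The neuronal list had 2 of 9 tested genes lower and none higher (median -0.36). NEFL fell from 62.9 and 55.5 CPM to 42.6, 41.6 and 37.7 CPM, a log2 fold change of -0.54 ± 0.09 (SE; adjusted p 0.0140, edgeR; 0.0784 without sino4). SEZ6L, a neuronal transmembrane protein, fell by 1.07 on the log2 scale, from 147 and 126 reads in siL2 and siNT to 51, 55 and 75 reads in siIDT, sino4 and siSMPLT (adjusted p 0.0198, edgeR; 0.0807 without siIDT and 0.105 without sino4). STMN1 did not pass, at a log2 fold change of 0.31 (adjusted p 0.0537, edgeR).

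Of the 10 repressor genes, all tested, 2 rose and none fell (median 0.09). RCOR3, a CoREST protein, rose from 26.9 and 28.5 CPM to 39.5, 39.9 and 37.0 CPM, a log2 fold change of 0.49 (adjusted p 0.0149, edgeR; 0.0627 without siIDT and 0.0970 without sino4). EHMT2, the histone H3 lysine methyltransferase G9a, rose from a mean of 77.7 ± 7.18 CPM (SD, n = 2) to 99.1 ± 2.48 CPM (SD, n = 3), or 0.35 on the log2 scale (adjusted p 0.0336, edgeR). Its call was lost in 4 of the 5 omissions, without siIDT (0.112), sino4 (0.152), siSMPLT (0.0696) or siL2 (0.0577). REST itself measured 167, 155 and 157 CPM against 146 in siL2 and 148 in siNT, a log2 fold change of 0.12 with a 95% interval of -0.04 to 0.28 (adjusted p 0.303, edgeR). HDAC2, KDM1A and HDAC1 had log2 fold changes of 0.06, 0.05 and 0.11.

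The exocytosis list had 0 of 13 tested genes called by edgeR (median -0.08). SV2A had a log2 fold change of -0.31 and SYPL1 of 0.08. The hormone list had 2 genes tested, GAL (-0.30, adjusted p 0.114, edgeR) and NTS (0.65, adjusted p 0.403, edgeR), and neither was called. NTS entered the test through siIDT and siSMPLT alone, at 0.428 and 0.344 CPM against 0.292 in siL2 and 0.142 in siNT. The filter itself thus favoured a higher USP17 group for NTS. Of 6 paralogs tested none passed. NCAM2 had the widest difference, with 15, 12 and 21 reads in the USP17 libraries against 8 in siL2 and 5 in siNT. Its log2 fold change was 1.39 (adjusted p 0.0817, edgeR). It too entered the test through the USP17 libraries alone, at 0.459, 0.372 and 0.657 CPM against 0.233 in siL2 and 0.142 in siNT. A higher USP17 group was again favoured by the filter. ENO1 had a log2 fold change of -0.02, UCHL3 of -0.04 and UCHL5 of -0.06, all with groups that overlapped. ENO3, the muscle enolase, had a log2 fold change of 0.43 (adjusted p 0.0506, edgeR), in a gene with 302 to 421 reads on its own strand and 2368 to 2638 on the other.

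**Figure D4:**
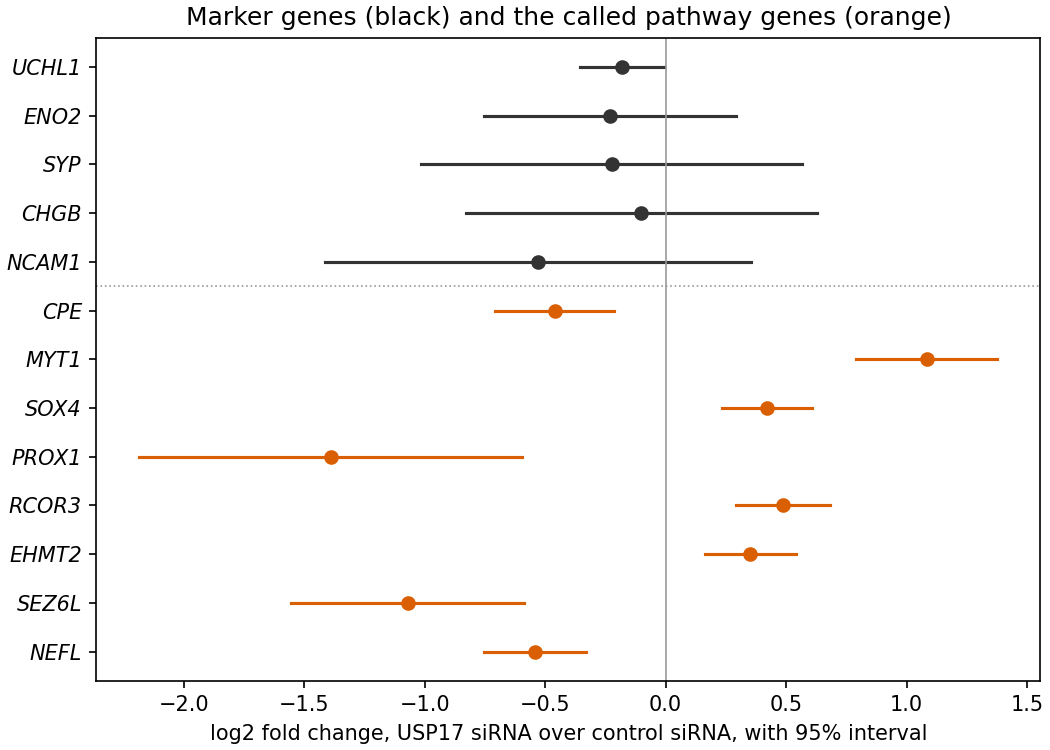
Log2 fold change of USP17 siRNA over control siRNA with 95% intervals for the 5 tested markers (black) and the 8 called genes of the wider lists (orange). The interval of UCHL1 ends just below 0 and those of the other 4 markers span it, whereas MYT1 lies at 1.08 and PROX1 at -1.39.

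These changes stood beside changes in the epithelial markers, of which 7 of 15 were tested, 2 rose and 1 fell. CDH17, the intestinal cadherin, rose by 0.88 and GPA33, an intestinal surface antigen, by 1.49 on the log2 scale, while CDX2 fell by 0.31, with edgeR adjusted p of 0.00285, 0.00480 and 0.0162. The CDX2 call was lost without siIDT (0.0758) or sino4 (0.104). The summed TPM of the epithelial list was 1657 to 1715 in the USP17 libraries and 1965 to 2042 in the controls, and followed CDX2. MUC2 and FABP1 had 0 reads throughout. The summed leukocyte list was 24.8 to 27.9 TPM and 22.9 to 28.6 TPM, and the stromal list 14.7 to 19.7 and 18.8 to 21.6 TPM, with none of their 6 tested genes called by edgeR. The part of these lists in the marker values was not tested.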

How the data were processed

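RNA from 5 COLO 320DM libraries was analysed from deposited tables. Per the submitters' processing notes, bcl2fastq 2.20, STAR 2.7.1a and RSEM 1.3.2 were used with GRCh38. In the sources used here, annotation release and strandedness are not given. The authors deposited read counts in STAR's layout, and the column holding 18.7 to 19.9 times the reads of the opposite strand was used. The authors also deposited RSEM expected counts and TPM. Rows naming no gene (22.8% to 24.4% of reads) were left out.

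Counts were tested in R 4.3.3 with edgeR 4.0.16 (filterByExpr with a minimum count of 10 and total of 15, TMM scaling, quasi-likelihood F test, two-sided, Benjamini-Hochberg over 16341 genes at 0.05), after a check on simulated data. Fold changes put USP17 siRNA over controls, and CPM is scaled by TMM. Library positions were compared on log2 CPM with a prior count of 2. Levels between genes were compared by TPM. Intervals are 95%. Coordinates and 3′ UTRs came from GENCODE 29, which lists 58405 of the identifiers. For each gene the longest 3′ UTR was searched, principal transcripts first.

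Members, lists, 7-mers and tests were chosen with earlier results of these data known. Named genes were all members, every called gene of the lists, up to 3 per list with the highest control TPM, set paralogs and markers, REST, and the 3 genes most like the most variable member. Other named genes were chosen after their values were seen. Some genes stand on more than 1 list and were counted once in the 105. Alternatives were DESeq2 1.42.0 (Wald test, size factors), limma-voom (limma 3.58.1), other filters, RSEM counts rounded to whole numbers, unstranded counts and leaving out each library. Some genes of the lists are counted but not reported here by name.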

Additional observations from a re-analysis of the deposited data

How the results depend on the processing

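No marker was called under any alternative run, though NCAM1 had no adjusted p from DESeq2 and no test with a minimum of 1 CPM in 2 libraries. Leaving out 1 library gave 130 to 2633 called genes overall (349 with siIDT out, 130 with sino4, 1041 with siSMPLT, 2430 with siL2, 2633 with siNT) and 1 to 14 on the 7 wider lists (2 without siIDT, 1 without sino4, 14 without siL2). A threshold of 0.10 gave 3074 and 14. Where 1 control was left, its variation was taken from the other group. Without siNT the uncalled log2 fold changes of CHGB (0.51), SYP (0.50) and ENO2 (0.16) turned positive, and without siL2 they were -0.52, -0.70 and -0.54, while UCHL1 stayed negative in all 12 of its alternatives (-0.23 to -0.13, adjusted p 0.0855 to 0.395). Against both controls, 2 tested markers had all USP17 libraries on 1 side, as did 45.9% of all tested genes. Against siNT alone all 5 had every USP17 library lower. Against siL2 alone 4 were on 1 side, with NCAM1 and UCHL1 lower but CHGB and SYP higher. The share of all tested genes on 1 side of a single control is not given here, so these counts have no background. The order of the 9 levels was the same with reads scaled to depth and length and with siNT alone. It was also the same with siL2 alone, except that CHGA and INSM1 were tied there at 0. Of the called genes, MYT1 kept its call throughout, NEFL lost it without sino4, and PROX1 lost it under 5 alternatives, limma-voom and RSEM counts among them. CPE lost it without siIDT, sino4 or siNT, EHMT2 in 4 of 5 omissions, and SOX4, RCOR3 and SEZ6L without siIDT or sino4. For changes other than from using fewer libraries or another threshold, the cause was not tested. Depth limited CHGA, SCG2, SCG3, INSM1 and NCAM1, with 0 to 49 reads in all. No paired analysis was possible because replicate numbers follow sample order and pair nothing.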
